A study of Homo sapiens with 90 samples.

Results

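The genes described are 40 human genes of the lysosome and of autophagy, chosen by name with earlier results of these data known. They comprise the transcription factors TFEB and TFE3, 8 proteases, 7 glycosidases, 6 proteins of lipid handling, 6 membrane proteins, 4 proteins of the proton pump and 7 proteins of autophagy. All 40 were found among the 53893 gene IDs of the table, and all 40 passed the filter on low counts in the fit across lines and in the fit of each line. The RNA came from 6 established cancer lines, exposed to an inhibitor of the kinase pathway that drives the line, to THZ1, or to both. THZ1 binds CDK7, a kinase of the transcription machinery, covalently. The 90 libraries fall into 30 groups of 3.

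Melanoma was represented by A375 with vemurafenib (1 uM), which blocks BRAF, and THZ1 at 50 nM. Of the lung lines, A549 was given GSK1120212 (trametinib, 200 nM), which blocks MEK, with THZ1 at 150 nM, H3122 crizotinib (250 nM), which blocks ALK, with THZ1 at 50 nM, and PC9 erlotinib (1 uM), which blocks EGFR, with THZ1 at 100 nM. Gastric N87 cells were given lapatinib (100 nM), which blocks EGFR and ERBB2, with THZ1 at 25 nM. Bladder RT112 cells were given BGJ398 (1 uM), which blocks FGFR, with THZ1 at 100 nM. At 48 h there were arms with 0.1% DMSO, the targeted drug, THZ1 and their combination, and a further arm had the targeted drug for 7 days. There was no DMSO arm at 7 days, so drug and time cannot be told apart there. The drug, the line and the doses change together, so a difference between lines cannot be told apart from one between drugs. Nothing in the labels states that a group's 3 libraries are separate cultures, and p-values inside one line then measure only the spread between these libraries, which may be technical.

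Lysosomes are acidic compartments in which hydrolases break down proteins, sugars and lipids delivered by endocytosis and by autophagy, the wrapping of cell contents in a double membrane that then fuses with the lysosome. The V-ATPase pumps protons to keep them acidic, and membrane proteins such as LAMP1 and LAMP2 line them. TFEB and TFE3, of the MiT/TFE family, bind an E-box sequence near the start of many of these genes. The kinase mTORC1, which sits on the lysosome, phosphorylates both factors and holds them in the cytoplasm while growth signals and nutrients are ample, so their activity is not read from their RNA alone.

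Each library held 5.64 to 14.36 M expected counts (median 11), and each of the 90 was closest to a library of its own group. In RT112 the library numbered 1 stood apart from the other 2 in DMSO, under BGJ398 at both times and in the combination, as did that of H3122 at 7 days, and 1 vemurafenib library of A375 at 48 h carries another tissue in its label. Without the first 5, or without the last, no count of called genes across lines changed, and counts within RT112, H3122 and A375 moved by at most 2 genes. Levels below are CPM, counts scaled to a common library size by TMM over all libraries, and changes are log2 fold changes with their standard error. As for cell identity, A375 had SOX10 at 521 to 1325 CPM but TYR at 0 to 0.280, H3122 had NKX2-1 at 173 to 762 but SFTPC at 0, and RT112 had UPK1B at 536 to 1104 but UPK3A at no more than 0.386. UPK1B was also at 134 to 327 in A549. A549 and PC9 had NKX2-1 at no more than 0.356 and 1.42 CPM, and N87 had TFF1 at no more than 0.103, so these defining markers of lung and stomach epithelium were near 0 there. Macrophages are rich in lysosomes, and the 6 blood-cell markers together stayed between 0.229 and 12.97 CPM in the 90 libraries, with TYROBP at no more than 0.319. Their sum was highest in A549, at 1.67 to 3.61 CPM in DMSO and 9.28 to 12.97 under trametinib, with CD163 at up to 8.08 in that line, and its part in the rises of A549 was not tested. The 6 fibroblast and endothelial markers together ranged from 12.2 to 277.7 CPM, and in A549 from 17.4 to 20.8 in DMSO, 103 to 112 under trametinib at 48 h and 204 to 278 at 7 days. There COL1A1 reached 276 and the other 5 stayed at or below 1.06. Own-tissue markers also moved with the targeted drug at 48 h, the 6 lung markers of H3122 from 249.15 to 266 up to 701 to 776 and the 6 urothelial ones of RT112 from 1002 to 1098 up to 1657 to 1739.8. The urothelial sum in PC9 went from 162 to 185 up to 426 to 449.9. The 6 gastric markers together were at 3.80 to 7.49 CPM in DMSO in N87 and 1.66 to 2.29 under lapatinib. In 2 lung lines they were higher and fell at 48 h of the targeted drug. They went from 122 to 134 down to 56.8 to 60.7 in A549, and from 204 to 223 down to 15.1 to 25.5 in H3122. The part of these shifts in the results was not tested.

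The targeted drugs raised most of these genes at 48 h. Across lines, 28 of the 40 (70%) rose and GLA alone fell (edgeR, adjusted p under 0.05), while 18.6% of the 11875 tested genes were higher and 18.5% lower. The median log2 change was 0.68 over the 40 and 0.05 over all tested genes. Of the 40, 36 had a fitted change above 0, as had 54.1% of all tested genes. The 8 largest changes were those of ATP6V1B1, GPNMB, SMPD1, CTSK, GABARAPL1, PSAP, WIPI1 and ASAH1, from 3.02 down to 1.26. ATP6V1B1 and GPNMB, and also TFEB, passed the filter in some lines only with treated arms, as given below. The risers covered every role except the transcription factors, whose 2 members were not called. The same 18.6% and 18.5% of all tested genes stand beside the counts at 48 h given by role below. Of the 29 calls, 22 held in every alternative processing tried. ATP6V1H, BNIP3L, CTSD, LAMP1, MAP1LC3B, SQSTM1 and ULK1 lost their call in at least one. Leaving out each line in turn left 22 to 28 of the 40 rising, with the fewest without A549, and GLA fell each time.

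**Figure D1:**
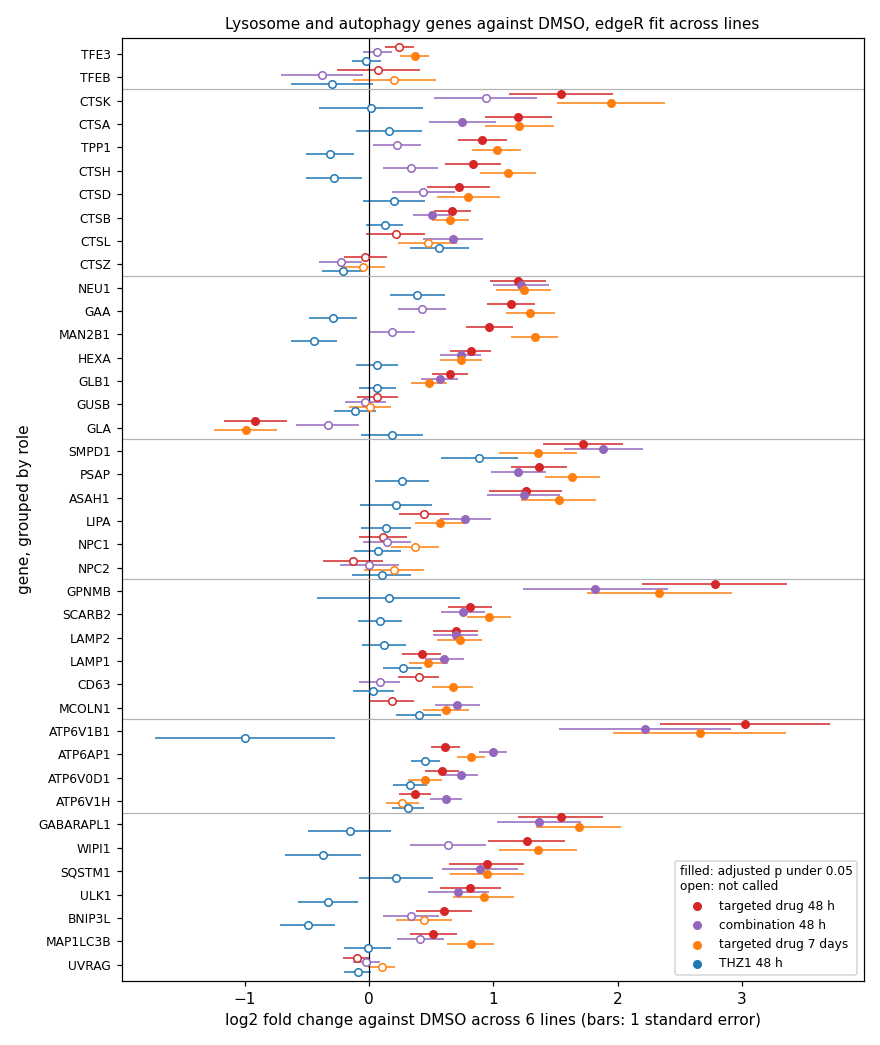
Log2 fold change against DMSO of the 40 genes, from the edgeR fit across 6 lines, for the 4 treated arms. Points are fitted changes, bars are 1 standard error, filled points passed adjusted p under 0.05, and rows are grouped by role in the order transcription factors, proteases, glycosidases, lipid handling, membrane proteins, V-ATPase and autophagy. Red, purple and orange points lie to the right of 0 for most genes, the blue points of THZ1 lie on both sides of 0 and are all open, and GLA lies to the left under the targeted drug at 48 h and 7 days.

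TFEB and TFE3 encode the factors that bind the E-box. TFEB was at 4.57, 4.58 and 2.94 CPM in the 3 DMSO libraries of A375 and at 4.39, 4.80 and 3.67 under vemurafenib. In A549 it was at 0.596, 0.875 and 1.57 in DMSO and 4.32, 7.65 and 5.75 under trametinib. In RT112 it was at 44.9, 46.4 and 50.9 in DMSO and 22.03, 21.8 and 23.0 under BGJ398. The libraries of both arms overlapped in A375, while all 3 treated libraries lay above DMSO in A549 and all 3 below it in RT112. In A549 fewer than 3 DMSO libraries reached 1 CPM of TFEB, so it passed the filter there with treated arms. In H3122 TFEB was at 5.96, 4.50 and 6.25 in DMSO and 4.78, 3.93 and 3.86 under crizotinib. In N87 it was at 14.7, 13.6 and 13.6 and, under lapatinib, 14.1, 11.2 and 10.97. In PC9 it was at 4.82, 7.11 and 8.35 and, under erlotinib, 5.89, 4.69 and 5.68. The arms overlapped in these 3 lines. TFEB moved in opposite directions in A549 and RT112, with log2 changes of 2.48 (standard error 0.29, edgeR adjusted p = 1.3e-07) and -1.15 (standard error 0.07, edgeR adjusted p = 3.8e-10), and its change across lines was 0.07 (standard error 0.33, edgeR adjusted p = 0.88).

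The level of TFE3 per kilobase of exon in DMSO was above that of TFEB, with medians over lines of 16.5 and 1.38 CPM per kilobase. In A375 it was at 85.3, 86.1 and 90.1 CPM in DMSO and 99.6, 105 and 109 under vemurafenib. In A549 it was at 124, 111 and 121 and, under trametinib, 186, 187 and 185. In H3122 it was at 36.1, 32.9 and 28.4 and, under crizotinib, 32.0, 30.3 and 26.3. A375 and A549 treated libraries lay above DMSO, and those of H3122 overlapped it. In N87 TFE3 was at 60.0, 58.9 and 56.5 in DMSO and 69.9, 66.8 and 68.9 under lapatinib. In PC9 it was at 51.7, 53.5 and 49.0 and, under erlotinib, 44.1, 46.6 and 43.9. In RT112 it was at 49.9, 57.3 and 55.4 and, under BGJ398, 71.0, 70.3 and 62.3. Treated libraries lay above DMSO in N87 and RT112 and below it in PC9. The change across lines was 0.24 (standard error 0.12, edgeR adjusted p = 0.10) at 48 h and 0.37 (standard error 0.12, edgeR adjusted p = 0.014) at 7 days against DMSO, so that TFE3 was called higher at 7 days. That call was lost without A549, without RT112, without the filter on low counts and with only both arms in the fit.

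Kin of these factors and the machinery that links them to mTORC1 were read from a list of 22 genes, of which 18 could be tested across lines. Of the 18, 7 rose at 48 h and none fell, where 18.6% of all tested genes were higher and 18.5% lower. RRAGB, a Rag GTPase that brings mTORC1 to the lysosome, changed by 1.01 (standard error 0.20, edgeR adjusted p = 7.2e-04), FLCN, which acts on the Rag GTPases, by 0.79 and RRAGC by 0.72. FNIP1, TSC2, TSC1 and LAMTOR3 also rose, by 0.66, 0.48, 0.39 and 0.37. The remaining 11 tested genes, FNIP2, RRAGA, LAMTOR1, LAMTOR2, LAMTOR4, LAMTOR5, MTOR, RPTOR, RHEB, PPP3CA and ZKSCAN3, had changes from -0.12 to 0.35 and were not called. MITF, TFEC, RRAGD and DEPTOR were too low in at least one line for the fit across lines. MITF, the melanocyte factor of the same family, had a mean of 30.2 CPM in DMSO and 57.0 under vemurafenib in A375, and 2.85 and 10.2 in A549 with trametinib. Its means in DMSO and under the targeted drug at 48 h were 28.2 and 38.6 in PC9 and 21.9 and 24.5 in H3122. They were lower under the drug in RT112, at 8.82 and 8.10, and in N87, at 0.917 and 0.622. TFEC had a mean of 14.3 and 42.3 CPM in A549 and at most 0.250 CPM in either arm of the other lines. RRAGD was called higher in A549, N87 and RT112 and lower in A375 and H3122, and DEPTOR higher in H3122 and N87 and lower in A375 and RT112.

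The E-box that MiT/TFE factors bind is often found as the palindrome TCACGTGA, and it was looked for on both strands, which are the same for a palindrome, in the RefSeq promoter windows of build GRCh38.p14, each of 300 bases from 250 before a gene's start to 50 after it. Of the 40 genes 31 matched a window, and ATP6V1H, PSAP, BNIP3L, CTSB, UVRAG, HEXA, CTSK, LAMP2 and ASAH1 had none. The palindrome stood in a window of 5 of the 31 (16.1%), ATP6V0D1, CTSA, GAA, LAMP1 and MCOLN1, in 1.18% of all 27305 symbols counted in the same way, over any window of a gene, and in 0.980% of all 35116 windows of that length. The shorter CACGTG, which the palindrome contains, stood in 8 of the 31 (25.8%), adding CD63, CTSD and NEU1, in 8.77% of all symbols and in 7.26% of all windows. A match is a description of the letters and not a site. The 80 bases before the start are shown for the 5 genes, because the factors described above are known for this sequence, with the palindrome in capitals:
ATP6V0D1 (chr16:67481158-67481237, minus strand): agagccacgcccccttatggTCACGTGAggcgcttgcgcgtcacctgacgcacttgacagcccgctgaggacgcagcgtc
CTSA (chr20:45891255-45891334, plus strand): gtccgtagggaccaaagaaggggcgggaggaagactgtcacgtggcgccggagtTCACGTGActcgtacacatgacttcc
GAA (chr17:80101501-80101580, plus strand): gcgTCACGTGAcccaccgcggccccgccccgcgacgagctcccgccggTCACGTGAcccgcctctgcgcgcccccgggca
LAMP1 (chr13:113297159-113297238, plus strand): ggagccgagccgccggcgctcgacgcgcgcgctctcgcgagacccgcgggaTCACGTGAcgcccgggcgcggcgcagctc
MCOLN1 (chr19:7522544-7522623, plus strand): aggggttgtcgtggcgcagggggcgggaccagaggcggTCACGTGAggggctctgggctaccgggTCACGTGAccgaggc
GAA and MCOLN1 each held 2 copies before the start, and LAMP1 held a second one that runs across its start. At 48 h of the targeted drug across lines, CTSA changed by 1.202, GAA by 1.14, ATP6V0D1 by 0.58 and LAMP1 by 0.42, all called, and MCOLN1 by 0.18, not called. ATP6V1B1, GPNMB, SMPD1, GABARAPL1 and WIPI1, among the 8 largest changes, had a window without the palindrome. GPNMB held instead TCACATGA, 1 base from the palindrome, which on one strand or the other (TCATGTGA) stood in 3 of the 31 genes (9.68%), CD63, GPNMB and TPP1, in 1.24% of all symbols and in 1.00% of all windows. It was chosen to be shown after its values were seen, with TCACATGA in capitals:
GPNMB (chr7:23246695-23246774, plus strand): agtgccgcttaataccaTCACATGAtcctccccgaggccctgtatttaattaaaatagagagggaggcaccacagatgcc

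Among the 8 proteases 6 rose at 48 h across lines and none fell, with a median log2 change of 0.78. CTSK, a collagen-degrading cysteine protease best known from osteoclasts, was at 12.4, 15.3 and 13.3 CPM in the DMSO libraries of A375 and 67.4, 75.8 and 69.6 under vemurafenib. In A549 it was at 2.13, 1.64 and 1.37 and then 3.12, 4.57 and 3.88, and in H3122 at 5.31, 4.50 and 5.11 and then 9.97, 9.11 and 9.89. The treated libraries lay above DMSO in all 6 lines. In N87 CTSK went from 3.11, 3.18 and 3.23 to 8.06, 7.64 and 7.92, in PC9 from 1.78, 1.34 and 1.12 to 3.63, 3.98 and 2.84 and in RT112 from 1.30, 1.18 and 1.79 to 6.07, 4.79 and 4.70. Its change across lines was 1.55 (standard error 0.42, edgeR adjusted p = 0.0062). CTSA, a carboxypeptidase that also protects NEU1 and GLB1 from degradation, changed by 1.202 (standard error 0.27, edgeR adjusted p = 0.0018), from 0.28 in H3122 to 2.01 in A375. TPP1, a peptidase that removes tripeptides, changed by 0.91 and was called higher in all 6 lines.

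CTSH, an aminopeptidase, changed by 0.84 (standard error 0.22, edgeR adjusted p = 0.0061), with PC9 at 1.75 and the other lines at 0.34 to 0.72. CTSD, the main aspartic protease of lysosomes, changed by 0.72 across lines, from 1.55 in A375 and 1.31 in A549 to -0.11 in H3122 and -0.07 in N87, where it was not called. Its call across lines was lost without A375 or A549. CTSB, a cysteine protease, changed by 0.67 and was called higher in 5 lines. CTSL and CTSZ, other cysteine proteases, were not called across lines, at 0.21 and -0.03. CTSL was called lower in A375, H3122 and N87 and higher in A549, PC9 and RT112, and CTSZ lower in A375, N87 and RT112 and higher in A549 and H3122.

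The 7 glycosidases held both directions: 5 rose and GLA fell. GLA, the alpha-galactosidase that is missing in Fabry disease, was at 13.1, 15.2 and 16.2 CPM in DMSO and 11.1, 12.4 and 13.6 under vemurafenib in A375. In A549 it fell from 139, 147 and 141 to 70.0, 65.6 and 69.5, and in H3122 from 56.2, 52.7 and 50.5 to 31.9, 31.0 and 35.0. All treated libraries lay below DMSO in every line except A375, where the arms overlapped. In N87 GLA fell from 25.0, 26.8 and 26.2 to 10.2, 8.71 and 8.97, in PC9 from 38.5, 33.5 and 35.0 to 16.2, 14.99 and 17.2 and in RT112 from 23.5, 21.8 and 21.0 to 12.1, 8.74 and 10.6. Its change across lines was -0.91 (standard error 0.25, edgeR adjusted p = 0.0073), and it was called lower in all 6 lines. NEU1, a sialidase, changed by 1.198 (standard error 0.22, edgeR adjusted p = 4.7e-04), with H3122 at 0.01 and the other lines at 1.11 to 1.65. GAA, which degrades glycogen and is missing in Pompe disease, changed by 1.14 (standard error 0.19, edgeR adjusted p = 2.4e-04). GAA, MAN2B1, an alpha-mannosidase (0.97), and HEXA, a subunit of hexosaminidase A (0.82), were called higher in all 6 lines. GLB1, a beta-galactosidase, changed by 0.65 and was called higher in 4 lines. GUSB, a beta-glucuronidase, was not called (0.07), with calls upward in H3122 and PC9 and downward in N87 and RT112. Sequences named as GUSB pseudogenes held 40.3% of the counts of GUSB and its 17 copies together, so that its reads could be split and its value is uncertain.

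Of the 6 genes of lipid handling, SMPD1, PSAP and ASAH1 rose across lines and LIPA, NPC1 and NPC2 were not called. SMPD1, the acid sphingomyelinase, went from 21.7, 20.8 and 20.02 CPM in DMSO to 127, 134 and 128 in A375 and from 8.43, 11.2 and 8.42 to 64.4, 64.9 and 69.3 in A549. It went from 9.86, 10.4 and 10.5 to 28.6, 30.1 and 30.8 in H3122 and from 2.92, 3.59 and 3.52 to 7.13, 5.09 and 5.72 in N87. In PC9 it went from 8.88, 10.7 and 11.7 to 18.6, 17.3 and 17.3 and in RT112 from 6.57, 6.46 and 6.57 to 16.4, 16.1 and 16.5. The arms did not overlap in any line, and the change across lines was 1.72 (standard error 0.32, edgeR adjusted p = 4.6e-04). In A549 SMPD1 had the largest rise of the 40 genes, 2.77 (standard error 0.08, edgeR adjusted p = 2.5e-17), or 6.83-fold.

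PSAP, the precursor of the saposins that help hydrolases reach their lipids, was the most abundant of the 40 per kilobase of exon, with a median over lines of 269 CPM per kilobase in DMSO. It went from 554, 542 and 568 CPM to 2285, 2361 and 2380.1 in A375, from 457, 469.7 and 453 to 1116, 1088 and 1096 in A549 and from 995, 928 and 917 to 1277, 1361 and 1329 in H3122. In N87 it went from 888, 924 and 900.2 to 1341, 1274 and 1242, in PC9 from 973, 987 and 950.3 to 3146, 3015 and 3043 and in RT112 from 645, 644 and 649 to 2039, 2129 and 2176. Every treated library lay above its line's DMSO libraries, and the change across lines was 1.37 (standard error 0.22, edgeR adjusted p = 1.8e-04). ASAH1, the acid ceramidase, went from 20.9, 24.1 and 27.1 to 54.2, 56.6 and 57.3 in A375, from 97.6, 94.2 and 96.6 to 149, 146 and 149.7 in A549 and from 112, 104 and 104 to 134, 149 and 136 in H3122. In N87 it went from 81.6, 87.7 and 85.3 to 249.5, 252 and 244, in PC9 from 84.7, 93.0 and 85.8 to 405, 413 and 412 and in RT112 from 52.3, 49.4 and 49.3 to 149, 154 and 160.1. The arms of ASAH1 did not overlap either, and its change was 1.26 (standard error 0.29, edgeR adjusted p = 0.0023).

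LIPA, the acid lipase, had a change of 0.44 (standard error 0.20, edgeR adjusted p = 0.089) and was called higher in A375, A549, N87 and PC9 and lower in RT112. NPC1 and NPC2, which together export cholesterol from the lysosome, had changes of 0.11 and -0.13 across lines. NPC2 was called lower in A375, H3122, N87 and PC9 and higher in A549, at 1.03. NPC1 was called lower in H3122 and N87 and higher in A549 and RT112.

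The membrane protein with the largest rise was GPNMB, a glycoprotein of melanosomes and lysosomes. It was at 67.9, 67.0 and 72.1 CPM in DMSO and 1467, 1473 and 1504 under vemurafenib in A375. In RT112 it was at 0.764, 0.473 and 0.730 and then 22.9, 21.2 and 23.7, and in PC9 at 9.55, 10.2 and 9.30 and then 57.7, 62.6 and 60.1. These rises came to 21.2-fold, 32.6-fold and 6.30-fold. In H3122 GPNMB was at 1.08, 0.314 and 0.417 and then 1.57, 2.78 and 2.97, in N87 at 0.876, 1.03 and 0.855 and then 4.34, 3.23 and 3.24, and in A549 at 3.32, 3.06 and 3.53 and then 5.03, 4.46 and 4.11. The arms did not overlap in any line, but in A549 the change of 0.39 (standard error 0.18, edgeR adjusted p = 0.058) was not called. In H3122, N87 and RT112 fewer than 3 DMSO libraries reached 1 CPM of GPNMB, so it passed the filter there with treated arms. Across lines the change was 2.78 (standard error 0.58, edgeR adjusted p = 0.0011). In A375 the summed level of 7 melanocyte markers moved in the same direction, from 904 to 929 CPM in DMSO to 1596 to 1645 under vemurafenib. Over all arms of A375, SOX10 ran from 521 to 1325 CPM, DCT from 0 to 461 and S100B from 16.4 to 142. PMEL, MLANA, TYRP1 and TYR stayed at or below 3.67 CPM there. The part of this sum in the rise of GPNMB was not tested.

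SCARB2, an integral protein of the lysosomal membrane, changed by 0.81 (standard error 0.18, edgeR adjusted p = 0.0015), LAMP2 by 0.70 and LAMP1 by 0.42. SCARB2 and LAMP2 were called higher in all 6 lines, and LAMP1 in A375, A549, PC9 and RT112 but lower in N87, at -0.45. The call of LAMP1 across lines was lost without A375, A549, PC9 or RT112. CD63, a tetraspanin of late endosomes, had 0.40 (standard error 0.16, edgeR adjusted p = 0.058) and was not called. MCOLN1, a cation channel that releases lysosomal calcium, was not called across lines (0.18), with calls upward in A375, PC9 and RT112 and downward in H3122 and N87.

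All 4 of the proton pump genes described here rose. ATP6V1B1, the B subunit isoform known from kidney and inner ear, was low or near 0 in DMSO and rose most in proportion. It went from 2.06, 1.97 and 1.38 CPM to 52.7, 55.5 and 55.6 in RT112, from 10.2, 10.4 and 10.2 to 113, 112 and 109 in PC9 and from 8.18, 7.59 and 8.74 to 76.0, 80.4 and 80.5 in N87. The fitted rises were 28.8-fold, 11.01-fold and 9.62-fold, and no treated library overlapped DMSO. In A549 it went from 2.64, 2.51 and 3.13 to 19.8, 18.5 and 18.1 and in A375 from 1.00, 1.15 and 0.618 to 1.97, 1.75 and 1.75, the latter with 1.03 (standard error 0.46, edgeR adjusted p = 0.054) and not called. In H3122 the 3 DMSO libraries held 2 counts in all and the crizotinib libraries 25, a ratio of 10.9 after scaling with an exact 95% interval from 2.71 to 94.6 that covers counting error only. Of the H3122 libraries only those of the combination reached 1 CPM, at 1.42, 1.79 and 2.30. ATP6V1B1 thus passed the filter of the fit across lines there through that treated arm. In A375 too, fewer than 3 DMSO libraries reached 1 CPM of ATP6V1B1, so it passed with treated arms. Across lines the change was 3.02 (standard error 0.68, edgeR adjusted p = 0.0018). ATP6AP1, an accessory protein of the pump, changed by 0.62 (standard error 0.11, edgeR adjusted p = 4.8e-04), the subunit ATP6V0D1 by 0.58 and the subunit ATP6V1H by 0.37. None of these 3 was called in H3122, where ATP6AP1 and ATP6V0D1 had 0.07 and 0.11 and ATP6V1H -0.21. The call of ATP6V1H across lines was lost without any 1 of A375, A549, N87, PC9 and RT112.

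Among the 7 autophagy genes all but UVRAG rose across lines. GABARAPL1, a ubiquitin-like protein that is attached to the autophagosome membrane, went from 29.7, 32.7 and 35.2 CPM to 43.8, 37.5 and 40.4 in A375, from 69.0, 65.8 and 68.2 to 291, 278 and 279 in A549 and from 19.1, 23.1 and 19.0 to 24.6, 27.6 and 25.8 in H3122. In N87 it went from 35.2, 35.7 and 37.0 to 231, 220.1 and 208, in PC9 from 105, 96.5 and 104 to 336, 340.3 and 336 and in RT112 from 17.5, 10.2 and 10.9 to 54.97, 37.3 and 37.8. No arms overlapped, the change across lines was 1.54 (standard error 0.34, edgeR adjusted p = 0.0015), and in H3122 it was not called. In RT112 the library numbered 1 was the highest in both arms. WIPI1, which binds the lipid that marks forming autophagosomes, went from 16.3, 23.5 and 20.7 to 38.2, 39.4 and 39.2 in A375, from 4.09, 5.14 and 3.23 to 14.8, 14.9 and 14.9 in A549 and from 21.9, 21.2 and 22.1 to 18.7, 25.4 and 22.1 in H3122. In N87 it went from 16.7, 15.7 and 17.5 to 40.1, 38.6 and 34.3, in PC9 from 12.01, 11.4 and 11.2 to 43.5, 42.0 and 39.6 and in RT112 from 8.79, 9.06 and 9.496 to 27.2, 26.3 and 28.3. Only in H3122 did its arms overlap, and its change was 1.27 (standard error 0.31, edgeR adjusted p = 0.0032).

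SQSTM1, a receptor that delivers ubiquitin-tagged cargo, changed by 0.95 (standard error 0.30, edgeR adjusted p = 0.017) across lines. It was called higher in 5 lines, at 0.98 to 1.82, and lower in H3122, at -0.54. ULK1, the kinase that starts autophagy, changed by 0.82, with 0.01 in RT112, BNIP3L, a receptor for mitochondria, by 0.60, with -0.20 in RT112, and MAP1LC3B, of the same family as GABARAPL1, by 0.52, with -0.23 in H3122. Each of these 4 calls was lost on leaving out a line: SQSTM1 without A549, N87 or RT112, ULK1 without PC9, BNIP3L without A375, A549, H3122, N87 or PC9, and MAP1LC3B without A375, A549, N87, PC9 or RT112. UVRAG, which acts in autophagosome maturation, had -0.10 and was called lower in A375 and A549. The near-identical copies MAP1LC3B2 and GABARAPL3 held 0.0326% and 0.0231% of the counts of each pair.

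Line by line, the number of the 40 genes called at 48 h of the targeted drug was 31 higher and 5 lower, against 34.3% and 32.9% of all 16106 tested genes in A375. It was 35 higher and 2 lower, against 36.8% and 37.4% of all 14810 tested genes in A549. It was 33 higher and 3 lower, against 35.2% and 32.8% of all 15311 tested genes in PC9. In these 3 lines, and in RT112 with 31 higher and 6 lower, against 34.2% and 35.1% of all 15298 tested genes, the share called higher was above 75% and the share called lower below that of all genes. In N87 the numbers were 25 higher and 8 lower, against 35.5% and 35.4% of all 15370 tested genes. H3122 with crizotinib had the fewest calls, 17 higher and 7 lower, against 22.0% and 24.1% of all 14905 tested genes, and a median over the 40 of 0.17 where the other lines had 0.36 to 0.92. The largest called rise was that of GPNMB in A375 and RT112, of SMPD1 in A549 and of ATP6V1B1 in H3122, N87 and PC9, in H3122 on the 2 counts in DMSO given above. The largest called fall was that of UVRAG in A375, at -0.54 (standard error 0.09, edgeR adjusted p = 4.8e-05), of TFEB in RT112, and of GLA in the other 4 lines, where it ran from -0.69 to -1.49.

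Of the 40 genes, 12 were called higher in all 6 lines, GLA was called lower in all 6, and 13 were called higher in at least 1 line and lower in at least 1 other. The shares of all tested genes called in these ways were not counted, so these numbers are not set against a background. A test of whether the change differed between lines (edgeR, 5 degrees of freedom, adjusted p under 0.05) passed for all 40, as it did for 93.7% of all tested genes.

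**Figure D2:**
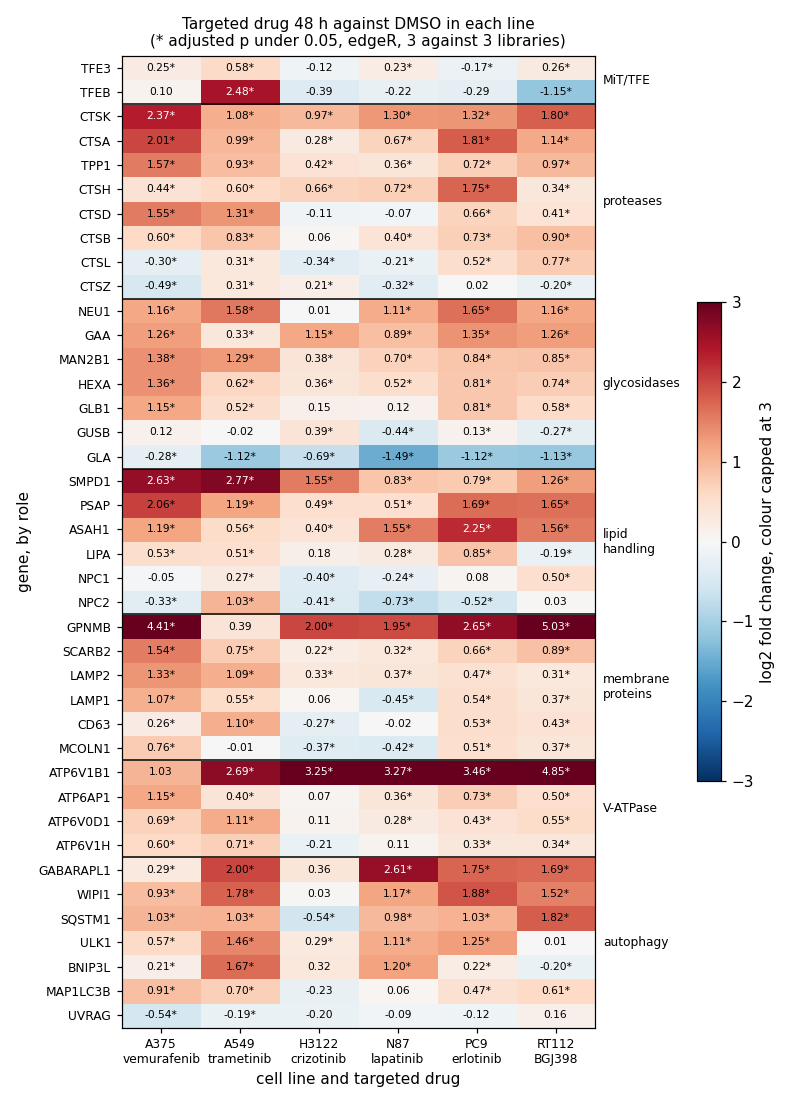
Log2 fold change of each gene in each line for the targeted drug at 48 h against DMSO, 3 libraries against 3. Numbers are the fitted changes, stars mark adjusted p under 0.05 within the line, red is higher, blue is lower and the colour is capped at 3. The column of H3122 is the palest, the rows of GPNMB and ATP6V1B1 the darkest, and the row of GLA is blue in all 6 lines.

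The genes of cell division moved the other way in the same arms. All 10 proliferation genes listed fell across lines at 48 h, with a median of -2.06, and the part of slower division in the changes above was not tested. In bulk RNA, fewer cells of a kind and less RNA per cell cannot be told apart, and without a spike-in a change is relative to the other RNA of the library.

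**Figure D3:**
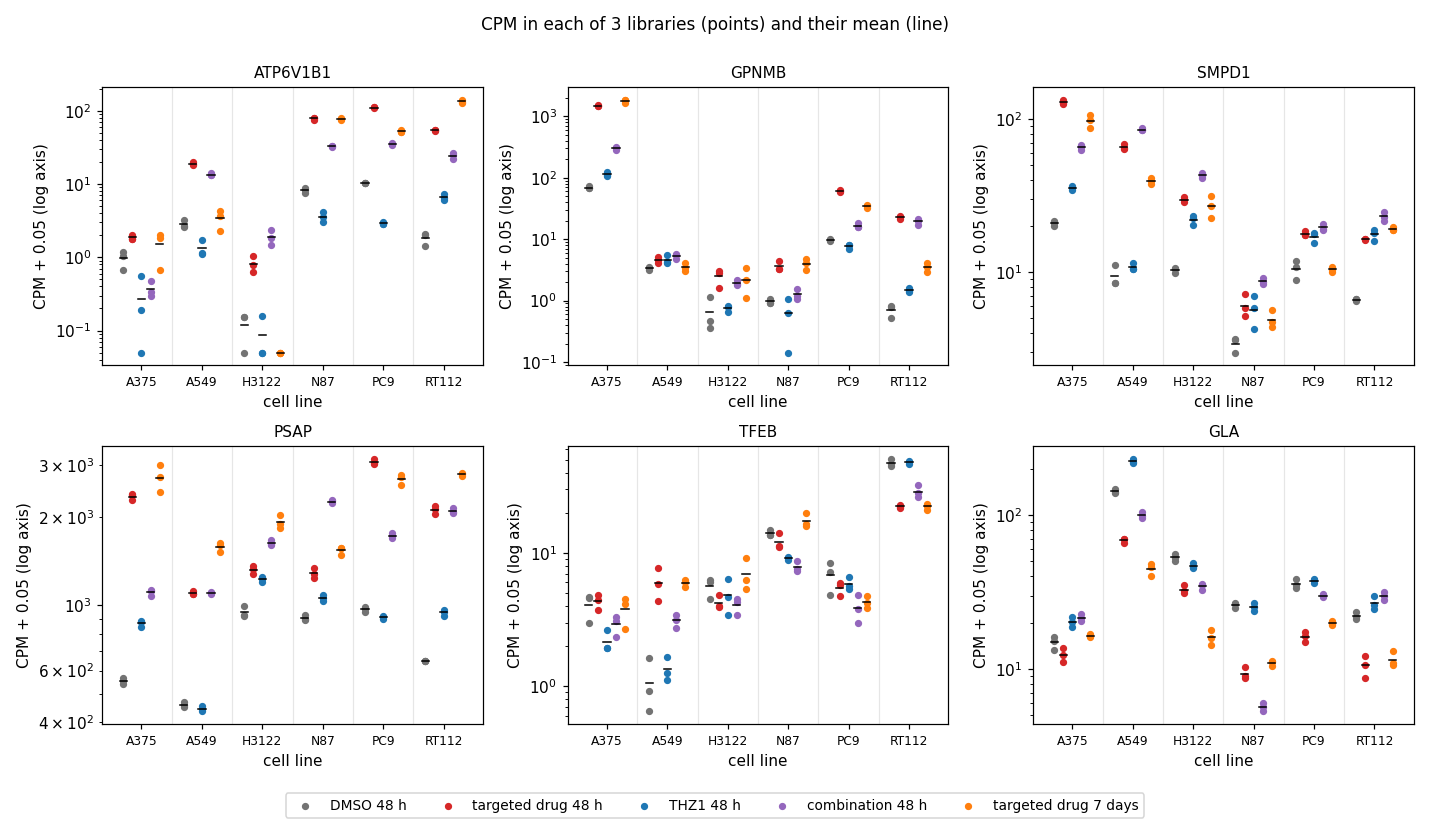
CPM of 6 of the genes in every library, by line and arm, on a log axis with 0.05 added so that libraries with no count can be drawn. Points are libraries and short lines are the means of 3. ATP6V1B1, GPNMB, SMPD1 and PSAP are higher in the targeted arm (red) than in DMSO (grey) in every line, TFEB is higher in A549 and lower in RT112, and GLA is lower in 5 lines with no overlap.

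THZ1 alone gave no call among the 40 genes across lines, in either direction, where 0.0589% of all tested genes were higher and 0.0253% lower. At an unadjusted p under 0.05, 6 of the 40 were higher and 2 lower, and DESeq2 called 1 higher. The share of all tested genes at that unadjusted threshold was not counted, and the shares above are for adjusted p. With only the THZ1 and DMSO arms in the fit, 3 were called higher and 2 lower. Counts of all genes with DESeq2 and in that fit are given in the last paragraph. The 3 highest values were those of SMPD1, 0.89 (standard error 0.31, edgeR adjusted p = 0.23), CTSL, 0.57, and ATP6AP1, 0.45 (standard error 0.11, edgeR adjusted p = 0.089). The 3 lowest were those of ATP6V1B1, -0.998 (standard error 0.72, edgeR adjusted p = 0.68), BNIP3L, -0.49, and MAN2B1, -0.44. ATP6AP1 and CTSL were called higher in all 6 lines, with CTSL at 1.25 in A375 and 0.31 to 0.51 in the other lines. SMPD1 was at 20.8 ± 0.854 CPM (SD, n = 3) in DMSO and 35.7 ± 1.02 under THZ1 in A375, 10.2 ± 0.348 and 21.98 ± 1.55 in H3122, and 6.53 ± 0.0650 and 17.6 ± 1.47 in RT112. It was called higher in every line except A549.

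The lines differed in direction under THZ1. RT112 had 25 higher and 2 lower, against 21.0% and 20.4% of all 15298 tested genes, and A375 had 21 higher and 12 lower, against 26.5% and 28.9% of all 16106 tested genes. PC9 had 7 higher and 20 lower, against 26.1% and 27.7% of all 15311 tested genes, and A549 12 higher and 17 lower, against 25.0% and 21.5% of all 14810 tested genes. The share called higher was above the share called lower in RT112 and A375 and below it in PC9 and A549. H3122 had 13 higher and 6 lower, against 10.8% and 12.3% of all 14905 tested genes, and N87 12 higher and 7 lower, against 14.1% and 16.3% of all 15370 tested genes. ATP6V1B1 was called higher in RT112, from 1.80 ± 0.370 CPM in DMSO to 6.57 ± 0.580 (SD, n = 3), and lower in A375, A549, N87 and PC9, in PC9 from 10.3 ± 0.109 to 2.89 ± 0.125. In A375 the THZ1 libraries held 0, 1 and 7 counts of it. BNIP3L was called lower in every line except N87. A test of the difference between lines passed for 39 of the 40 and for 83.9% of all tested genes. The doses of THZ1 differed between lines.

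Few of the 40 genes were called across lines when THZ1 was added to the targeted drug, as was so for all tested genes. Calls within lines were more numerous and went both ways, as given below. ATP6AP1 was higher, by 0.38 (standard error 0.11, edgeR adjusted p = 0.039), and 3 of the 40 fell, with MAN2B1 at -0.78 (standard error 0.19, edgeR adjusted p = 0.013), GAA at -0.71 (standard error 0.19, edgeR adjusted p = 0.026) and TPP1 at -0.68 (standard error 0.20, edgeR adjusted p = 0.033). Of all tested genes 3.70% were higher and 4.34% lower. The median of the 40 was -0.10 and that of all genes 0.00. None of the 4 calls held without PC9, without RT112, or with only both arms in the fit. Without A375 the 3 falls were not called, the call of TPP1 was lost without N87, and that of ATP6AP1 without A549, H3122 or N87. With no filter on low counts only MAN2B1 was called. The other values at the ends were GLA at 0.58 (standard error 0.25, edgeR adjusted p = 0.15) and MCOLN1 at 0.53 (standard error 0.18, edgeR adjusted p = 0.073), with CTSL at 0.46, and at the low end GPNMB at -0.96 (standard error 0.53, edgeR adjusted p = 0.27) and ATP6V1B1 at -0.80. None of these 5 was called.

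Within lines the combination moved the 40 genes in both directions. A375 had 8 higher and 28 lower, against 35.1% and 33.4% of all 16106 tested genes, and PC9 had 6 higher and 24 lower, against 33.4% and 34.9% of all 15311 tested genes. In both lines more than 50% of the 40 were called lower than under the targeted drug alone, with medians of -0.49 and -0.42. A549 had 11 higher and 17 lower, against 20.3% and 20.6% of all 14810 tested genes. N87 had 21 higher and 14 lower, against 27.0% and 28.8% of all 15370 tested genes, and RT112 18 higher and 10 lower, against 32.8% and 31.4% of all 15298 tested genes. H3122 had 12 higher and 4 lower, against 15.3% and 14.3% of all 14905 tested genes. In N87, RT112 and H3122 more of the 40 were higher than lower. The difference between lines passed its test for 39 of the 40 and for 92.4% of all tested genes. MAN2B1 was lower in all 6 lines and called in each.

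GPNMB in A375 was at 1467, 1473 and 1504 CPM under vemurafenib and at 304, 286 and 313 with THZ1 added, while the DMSO libraries were at 67.9, 67.0 and 72.1. In PC9 it was at 57.7, 62.6 and 60.1 under erlotinib and 18.0, 15.5 and 15.9 in the combination, and in RT112 at 22.9, 21.2 and 23.7 under BGJ398 and 19.9, 21.3 and 17.1. The combination lay between DMSO and the targeted drug in A375 and PC9 and overlapped the targeted drug in RT112. In A375 the 7 melanocyte markers summed to 543 to 585 CPM in the combination, below their 904 to 929 in DMSO, and their part was not tested. CTSK in A375 was at 67.4, 75.8 and 69.6 under vemurafenib and 11.5, 10.96 and 14.5 in the combination, the latter overlapping DMSO at 12.4, 15.3 and 13.3. ATP6V1B1 in N87 went from 76.0, 80.4 and 80.5 under lapatinib to 32.2, 33.4 and 33.5 in the combination, still above the 8.18, 7.59 and 8.74 of DMSO. In H3122 it was at 0.742, 0.575 and 0.989 under crizotinib and 1.42, 1.79 and 2.30 in the combination, all 3 higher. SMPD1 was higher in the combination in A549, H3122, N87 and RT112 and lower in A375, from 127, 134 and 128 to 65.8, 63.3 and 67.7. GLA was called higher in the combination in A375, A549, PC9 and RT112 and lower in N87, where it went from 10.2, 8.71 and 8.97 to 5.61, 5.95 and 5.26.

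**Figure D4:**
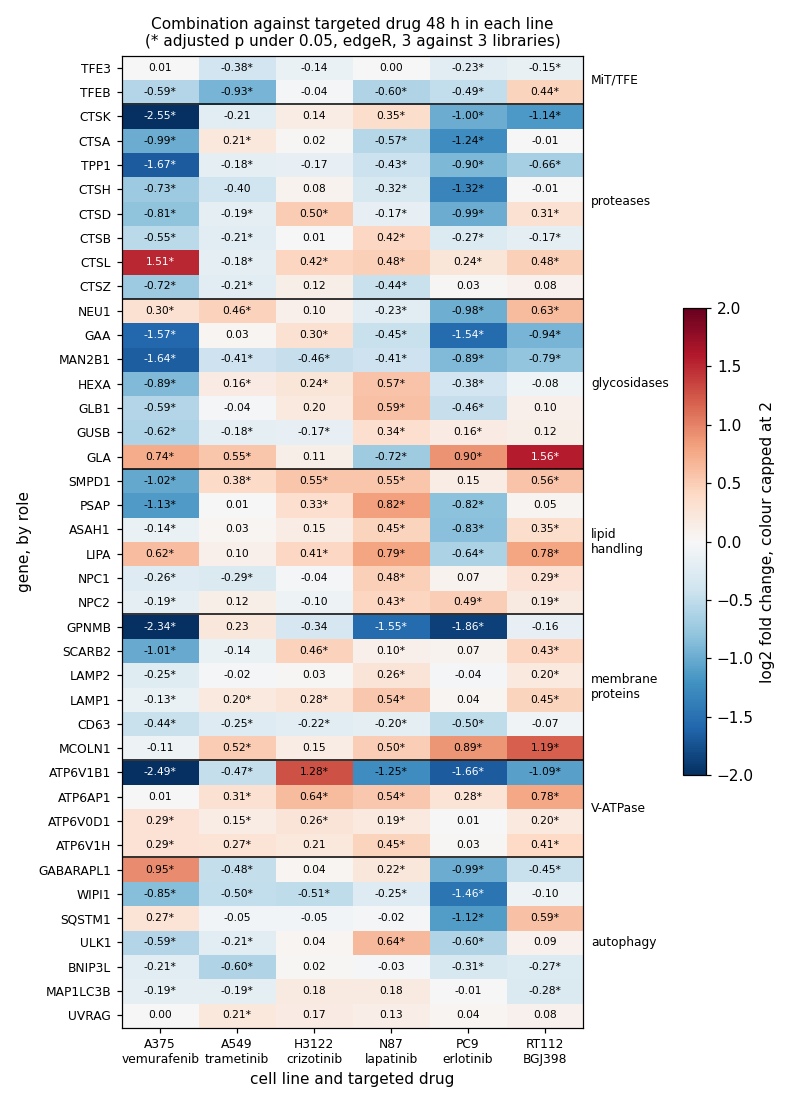
Log2 fold change of each gene in each line between the combination and the targeted drug at 48 h, 3 libraries against 3. Numbers are the fitted changes, stars mark adjusted p under 0.05 within the line, red is higher, blue is lower and the colour is capped at 2. The columns of A375 and PC9 are mostly blue, while N87, RT112 and H3122 hold more red cells than blue ones.

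Against DMSO the combination left 22 of the 40 genes (55%) higher across lines and none lower, where 15.5% of all tested genes were higher and 15.4% lower. This comparison shares its DMSO libraries with those above and its combination libraries with the last. The median was 0.63 against 0.02 for all genes. The largest changes were those of ATP6V1B1, 2.22 (standard error 0.69, edgeR adjusted p = 0.019), SMPD1, 1.89 (standard error 0.32, edgeR adjusted p = 3.1e-04), and GPNMB, 1.82 (standard error 0.58, edgeR adjusted p = 0.022). ATP6AP1 changed by 0.998 (standard error 0.12, edgeR adjusted p = 2.6e-05). By role, all 4 V-ATPase genes, 5 of 6 membrane proteins and 4 of 6 genes of lipid handling were called higher, and 3 of 8 proteases, 3 of 7 glycosidases and 3 of 7 autophagy genes. CTSL, LIPA and MCOLN1 were called here, at 0.67, 0.77 and 0.71. The call of CTSL was lost without any 1 of A375, A549, N87, PC9 and RT112 and with no filter on low counts. That of MCOLN1 was lost without RT112 and with only both arms in the fit. CTSA, CTSB, SQSTM1 and ULK1 each lost their call with no filter and without at least 1 of the lines. The lowest values were those of TFEB, -0.38 (standard error 0.33, edgeR adjusted p = 0.40), GLA, -0.33, and CTSZ, -0.23, none called. Leaving out a line left 16 to 24 genes higher, with 16 without N87 or without RT112, and the call of ATP6V1B1 was lost without A549 or N87 and that of GPNMB without RT112 or with only both arms in the fit.

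After 7 days of the targeted drug 30 of the 40 genes (75%) were higher than in DMSO across lines and GLA was lower, where 22.9% of all tested genes were higher and 20.3% lower. The median was 0.77 over the 40 and 0.07 over all genes. ATP6V1B1 changed by 2.66 (standard error 0.70, edgeR adjusted p = 0.0039), GPNMB by 2.34 (standard error 0.58, edgeR adjusted p = 0.0028) and CTSK by 1.95 (standard error 0.43, edgeR adjusted p = 0.0011). The 3 lowest values were those of GLA, -0.99 (standard error 0.25, edgeR adjusted p = 0.0034), CTSZ, -0.05, and GUSB, 0.01. All 6 membrane proteins were called higher, CD63 at 0.67 and MCOLN1 at 0.62 among them. The call of MCOLN1 was lost without A375 and with no filter on low counts. That of LAMP1 was lost without A375, A549 or RT112, with no filter and with only both arms in the fit. LAMP2 lost its call with only both arms. Leaving out a line left 26 to 31 genes higher, and GLA was lower each time. With only both arms in the fit 23 were higher, and ATP6V1B1 was not called.

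Between 7 days and 48 h of the targeted drug no gene was called across lines, among the 40 or in the whole table, with 0.00% of all tested genes higher and 0.00% lower. At an unadjusted p under 0.05, where all tested genes were not counted, 1 of the 40 was higher and 0 were lower, and DESeq2 called 0 of them. MCOLN1 had 0.44 (standard error 0.18, edgeR adjusted p = 0.73), CTSK 0.40 and MAN2B1 0.37 at the high end, and GPNMB -0.44, SMPD1 -0.36 and ATP6V1B1 -0.36 at the low end. MCOLN1 was called higher at 7 days in all 6 lines, from 0.31 in PC9 to 0.62 in A549.

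Single lines did change between both times. A549 had 21 higher and 9 lower, against 27.6% and 23.7% of all 14810 tested genes, RT112 had 19 higher and 6 lower, against 18.5% and 18.5% of all 15298 tested genes, and H3122 21 higher and 13 lower, against 30.5% and 33.4% of all 14905 tested genes. A375 had 12 higher and 8 lower, against 18.6% and 21.4% of all 16106 tested genes, and N87 12 higher and 9 lower, against 22.3% and 20.3% of all 15370 tested genes. PC9 had 9 higher and 18 lower, against 25.7% and 27.2% of all 15311 tested genes, the only line with more of the 40 lower than higher. The difference between lines passed its test for 39 of the 40 and for 90.7% of all tested genes. ATP6V1B1 in A549 went from 19.8, 18.5 and 18.1 CPM at 48 h to 3.56, 4.31 and 2.23 at 7 days, of which the latter overlaps the 2.64, 2.51 and 3.13 of DMSO. In RT112 it went from 52.7, 55.5 and 55.6 to 141, 130.3 and 132, and in H3122 from 25 counts in 3 libraries to 0, at least 9.27-fold lower when 3 counts over the group are taken as the floor. GPNMB in RT112 went from 22.9, 21.2 and 23.7 to 2.89, 4.01 and 3.53, still above DMSO, while in A375 it went from 1467, 1473 and 1504 to 1855, 1821 and 1651. CTSK in A375 rose further, from 67.4, 75.8 and 69.6 to 231, 208 and 192, and no libraries overlapped. In H3122, MAP1LC3B, NPC1 and SQSTM1 were higher at 7 days by 1.53, 1.504 and 1.40, all called, and GLA decreased by 1.09 on the log2 scale, from 31.9, 31.0 and 35.0 to 14.2, 16.0 and 17.8.

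**Figure D5:**
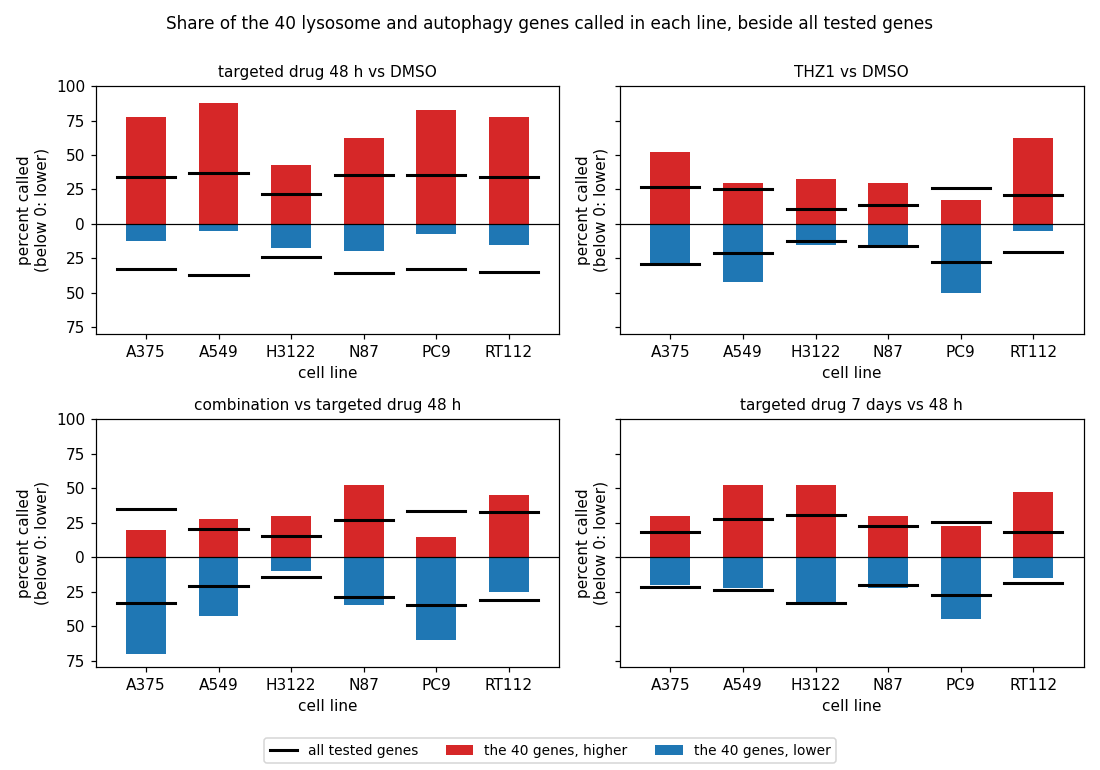
Percent of the 40 genes called higher (red, upward) and lower (blue, downward) in each line for 4 comparisons, with the percent of all tested genes called as black marks. Red bars exceed the black marks in all 6 lines for the targeted drug at 48 h. For the combination against the targeted drug, blue bars exceed them in A375, A549, N87 and PC9, and red bars in A549, H3122, N87 and RT112.

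Other genes of the pathway, from 6 lists of 136 genes of which 127 could be tested across lines, are given for comparison, with the same fit. These lists too were chosen with earlier results of these data known. At 48 h of the targeted drug 56 of them (44.1%) rose and 3 fell, where 18.6% of all tested genes rose. Of 33 other hydrolases 20 rose and none fell, with a median of 0.60. The largest were CTSO, a little-studied cysteine protease, 2.48 (standard error 0.38, edgeR adjusted p = 1.3e-04), CTSS, a cysteine protease of antigen-presenting cells, 2.38 (standard error 0.56), and CTSF, another cysteine protease, 1.87 (standard error 0.32). Of 24 other membrane and sorting proteins 11 rose, led by SLC17A5, which exports sialic acid, 1.11, GNPTG, a subunit of the enzyme that tags hydrolases for the lysosome, 1.05, and LMBRD1, needed for cobalamin export, 0.97. LAPTM4B fell there, at -0.42. Of 16 other V-ATPase genes 3 rose, a share close to the 18.6% of all tested genes, and none fell. The 3 were ATP6V0E1, 0.68, ATP6AP2, 0.59, and ATP6V1G1, 0.50. The median of the 16, 0.24, was below that of the 4 described above, 0.60, a difference that was not tested. Of 26 other genes of the autophagy machinery 9 rose and 2 fell, ATG14, 0.99, WDR45, 0.80, and GABARAP, 0.76, being the largest, and ATG3 and ATG4C the 2 that fell, at -0.45 and -0.43. Of 10 other autophagy receptors 6 rose and none fell, led by RETREG1, a receptor for the endoplasmic reticulum, 1.998, OPTN, 1.44, and NBR1, 0.80.

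THZ1 alone gave no call in any of the 6 lists, and neither did 7 days against 48 h. In the combination against the targeted drug 7 of the 127 were higher and 9 lower, where 3.70% and 4.34% of all tested genes were. Among other hydrolases 1 was higher and 6 lower, among V-ATPase genes 3 and 0, among autophagy machinery 3 and 2 and among receptors 0 and 1, and in the other 2 lists none was called. In the combination against DMSO 60 of the 127 were higher and 1 lower, where 15.5% and 15.4% of all tested genes were. The numbers higher were 11 of 33 hydrolases, 12 of 24 membrane and sorting proteins, 11 of 16 V-ATPase genes, 11 of 26 genes of the autophagy machinery, 6 of 10 receptors and 9 of 18 kin and mTORC1 genes.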

How the data were processed

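RNA from the 90 libraries was prepared with an RNeasy micro kit and a NEBNext Ultra RNA kit, per the labels' protocols. The authors deposited a table of expected counts for each gene ID, made with RSEM 1.2.12 and Bowtie2 2.2.1 on hg19, per the submitters' processing notes. No label names the gene annotation. Between 7.83% and 13.75% of a library's values were not whole, and all were rounded. Of 53893 gene IDs 47111 matched a symbol. For the fit across lines the 3 libraries of a group were summed, and 11875 genes with at least 1 CPM in 3 libraries of every line were fitted in edgeR 4.0.16 (R 4.3.3; TMM, quasi-likelihood test) with arm and line as terms. Each line's 15 libraries were fitted separately after edgeR's own filter. Calls are Benjamini-Hochberg adjusted p under 0.05 over all genes tested, and a standard error is the log2 change divided by the square root of its F. The fit was also run on simulated counts with a common dispersion and the same drug effect in every line. That setting differs from these data, so it does not test changes that differ between lines. The test of a difference between lines was added after the data were seen. Alternatives were DESeq2 1.42.0, its size factors, no filter, only the arms compared, a replicate block, and leaving out each line or library.

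The 40 genes and all lists were chosen with earlier results of these data known. By rule, every one of the 40 was named. Library values were given for TFEB, TFE3 and the 8 called genes with the largest change at 48 h, the 3 highest and 3 lowest were named in each other comparison across lines, and the largest called rise and fall in each line, the 3 largest calls of each pathway list and all kin of TFEB were also named. Library values of GLA, and values of other genes in single lines, were chosen after they were seen. Promoters were shown where they held the palindrome, and are RefSeq sequence of GRCh38.p14, which is not the build of the counts.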

Additional observations from a re-analysis of the deposited data

Results flagged for a closer look

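In 4 comparisons, all but those of the combination and of 7 days with DMSO, the 6 lines' changes of a gene were read as a group of 6, and 13 of 160 such groups had 1 line far from the others. The groups share libraries and each line had its own drug and doses, so no number expected by chance is given. At 48 h of the targeted drug TFEB in A549 stood at 2.48 (log2) against -1.15 to 0.10 in the other lines, CTSH in PC9 at 1.75 against 0.34 to 0.72, NEU1 in H3122 at 0.01 against 1.11 to 1.65 and SQSTM1 in H3122 at -0.54 against 0.98 to 1.82. Under THZ1, A375 held 3 of the outlying values, CTSL at 1.25, CTSZ at -0.76 and UVRAG at -0.44. ATP6V1B1 in RT112 was at 1.85 under THZ1, where the other lines ran from -1.85 to -0.82. In the combination against the targeted drug SMPD1 in A375 was at -1.02, against 0.15 to 0.56 in the other lines. Between 7 days and 48 h, H3122 held MAP1LC3B at 1.53, NPC1 at 1.504 and TFE3 at 0.50, and RT112 held GPNMB at -2.69, against -0.83 to 0.22 elsewhere. Of the 13 values 5 were in H3122, 4 in A375 and none in N87.

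The changes differed between lines, by the test of the difference itself, for 40 of the 40 genes under the targeted drug at 48 h, 39 under THZ1, 39 in the combination against the targeted drug, 40 in the combination against DMSO, 40 at 7 days against DMSO and 39 at 7 days against 48 h. Between 83.9% and 95.7% of all tested genes passed the same test, so that this is not particular to the 40.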

How the results depend on the processing

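Of 144 alternative values of the counts across lines 128 were within 1.5 times the value reported, and none reversed. For the combination against the targeted drug, the 1 higher and 3 lower genes became 0 and 1 with no filter on low counts, 2 and 3 with DESeq2 and 0 and 0 with only both arms in the fit, and leaving out each line gave 0 to 1 higher and 0 to 3 lower. For THZ1, DESeq2 called 1 gene higher and 0 lower, and the fit of only both arms 3 and 2. Among all genes THZ1 gave 7 higher and 3 lower in the fit reported, 89 and 105 with DESeq2 and 262 and 431 with only both arms. The combination against the targeted drug gave 439 and 515 in the fit reported, 691 and 793 with DESeq2, 220 and 218 with no filter and 60 and 132 with only both arms, and 7 days against 48 h gave 0 and 0 in the fit reported and 6 and 20 with DESeq2. The cause of these differences was not tested. The targeted drug at 48 h raised 22 to 28 of the 40 on leaving out a line, 23 with no filter or only both arms and 29 with DESeq2. Within lines all 272 alternative counts were within 1.5 times. In H3122 the combination against the targeted drug had 8 higher and 5 lower with no filter, against 12 and 4. Same-numbered libraries were compared: none of the 8 comparisons with 3 shared numbers had every correlation of deviations above 0.1, so the numbers were not taken as pairs. Of those sharing fewer, 3 in RT112 had both above 0.1 (0.443 and 0.182 at 48 h against DMSO, 0.267 and 0.111 for the combination against 48 h, 0.480 and 0.229 for 7 days against 48 h), where the block gave 38, 28 and 22 calls against 37, 28 and 25. With the replicate block the 24 counts were 0.867 to 1.08 times those without it. DESeq2's size factors moved the median of all genes by at most 0.029 (log2). ATP6V1B1 rests on 0 to 8 counts over 3 libraries in H3122 DMSO, THZ1 and 7 days and in A375 THZ1, where depth limits any fold. With 6 lines and 3 libraries a group, a change that missed the threshold is not shown to be absent.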
